A study of Mus musculus with 2 samples.

Results

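Transcription factors of the lymphoid lineages were followed across the lymphoid cells of the untreated mouse mesentery, the fold of tissue that carries vessels, nerves, fat and immune cells to the gut. The set is a list of gene symbols and held 9 of the 27998 genes of the count matrix: Gata3, Rora, Tbx21, Eomes, Foxp3, Bcl11b, Tcf7, Lef1 and Zbtb16. All 9 were found. Cells were released from whole mesenteries with the enzyme blend Liberase DH and profiled by droplet single-cell RNA sequencing, 1 library per mouse, from 2 male wild type C57BL/6N mice. There was a single group, with no treatment and no genetic change, so the comparisons are between classes of cells of the same 2 animals. The labels give a birth date in place of an age.

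These proteins bind DNA and set which lymphoid lineage a cell takes and keeps. Gata3 is required for type 2 helper T cells, for thymic T cell development and for group 2 innate lymphoid cells (ILC2), which carry no antigen receptor and secrete type 2 cytokines. Rora encodes a nuclear receptor needed for ILC2 development. Tbx21 encodes T-bet and Eomes its relative eomesodermin, T-box factors of type 1 helper, cytotoxic T and natural killer (NK) cells. Foxp3 defines regulatory T cells. Bcl11b, a zinc finger protein, commits progenitors to the T lineage and is also used by ILC2. Tcf7 and Lef1 encode TCF-1 and LEF-1, paired high-mobility-group factors of T cell development and of naive T cells. Zbtb16 encodes PLZF, the factor of innate-like T cells and of innate lymphoid precursors.

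Start regions are printed for 5 members. Gata3 and Rora were high together in ILC2-like cells, and Foxp3 was found in a small group of T cells. Bcl11b was called higher in T-like than in NK-like cells, and Tcf7 higher in T-like than in ILC2-like cells. Both of the last calls were lost without doublet removal. Bcl11b was not called between ILC2-like and T-like cells, nor Tcf7 between T-like and NK-like cells. The sequences are RefSeq promoters of build GRCm38.p6, 250 bases before to 50 bases after a transcription start, 300 bases each, written from 5′ to 3′ along the gene's strand. Capitals mark matches, on either strand, to short binding motifs: AGATAA for GATA factors, CTTTGAA for TCF/LEF, AGGTCA for ROR receptors, TGTGGT for RUNX, AGGTGTGA for T-box factors and CCGGAAGT for ETS factors.
Gata3, chr2:9878551-9878850, minus strand: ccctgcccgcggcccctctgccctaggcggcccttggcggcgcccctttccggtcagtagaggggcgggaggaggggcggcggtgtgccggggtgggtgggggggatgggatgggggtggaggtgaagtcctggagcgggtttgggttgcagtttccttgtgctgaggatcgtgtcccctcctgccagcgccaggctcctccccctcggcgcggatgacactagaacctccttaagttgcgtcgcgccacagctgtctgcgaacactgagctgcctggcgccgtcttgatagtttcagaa
Rora, chr9:68653536-68653835, plus strand: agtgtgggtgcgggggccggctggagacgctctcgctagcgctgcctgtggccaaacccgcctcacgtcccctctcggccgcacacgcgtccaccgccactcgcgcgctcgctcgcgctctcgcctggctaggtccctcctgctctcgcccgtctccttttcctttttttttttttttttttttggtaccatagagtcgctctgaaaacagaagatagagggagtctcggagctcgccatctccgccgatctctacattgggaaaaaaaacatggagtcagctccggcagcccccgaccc
Foxp3, chrX:7580233-7580532, plus strand: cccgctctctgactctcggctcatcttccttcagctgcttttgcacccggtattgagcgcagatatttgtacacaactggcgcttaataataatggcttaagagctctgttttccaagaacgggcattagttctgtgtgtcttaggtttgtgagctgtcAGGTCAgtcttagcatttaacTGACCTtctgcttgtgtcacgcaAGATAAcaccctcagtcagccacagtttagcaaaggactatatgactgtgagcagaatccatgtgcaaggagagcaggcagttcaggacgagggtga
Bcl11b, chr12:108003365-108003664, minus strand: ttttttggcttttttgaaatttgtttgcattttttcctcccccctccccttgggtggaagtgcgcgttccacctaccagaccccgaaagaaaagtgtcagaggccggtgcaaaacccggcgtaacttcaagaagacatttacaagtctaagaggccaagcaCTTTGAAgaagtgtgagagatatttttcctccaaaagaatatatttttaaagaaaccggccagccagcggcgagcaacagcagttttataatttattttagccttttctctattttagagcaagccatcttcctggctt
Tcf7, chr11:52282546-52282845, minus strand: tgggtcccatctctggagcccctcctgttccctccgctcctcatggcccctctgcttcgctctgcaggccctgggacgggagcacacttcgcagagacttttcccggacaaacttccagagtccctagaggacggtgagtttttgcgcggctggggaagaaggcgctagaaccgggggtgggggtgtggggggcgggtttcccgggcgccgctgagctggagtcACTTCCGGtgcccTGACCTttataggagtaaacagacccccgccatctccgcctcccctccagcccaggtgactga
In the Bcl11b window the capitals mark a TCF/LEF match, in the Foxp3 window a GATA match and a pair of ROR matches, and in the Tcf7 window an ETS and a ROR match. The Gata3 and Rora windows held no match to the 6 motifs, and their GC contents were 67.3% and 60.3% against a median of 52.7% over 32851 promoters. Of all these promoters, 11.2% held the GATA letters, 5.14% the TCF/LEF letters, 16.3% the ROR letters, 16.8% the RUNX letters, 3.89% the ETS letters and 1.28% the T-box letters. A match describes the sequence only. Of the members 8 had a promoter in the table, with 13 windows in all, and Zbtb16 had none. Foxp3 and Tcf7 each had a second window without a match. On GRCm38 (GENCODE) Gata3 lies at chr2:9857078-9890034 on the minus strand, Rora at chr9:68653786-69388246 on the plus strand and Tbx21 at chr11:97098071-97115331 on the minus strand. Eomes lies at chr9:118478212-118486132 and Foxp3 at chrX:7573644-7595245, both on the plus strand, and Bcl11b at chr12:107910403-108003602 on the minus strand. Tcf7 lies at chr11:52252371-52283014 (minus), Lef1 at chr3:131110471-131224356 (plus) and Zbtb16 at chr9:48654297-48836222 (minus).

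Counts are unique molecular identifiers (UMIs), each standing for 1 captured transcript. The libraries of mouse 1 and mouse 2 held 1517 and 1687 barcodes with 5137671 and 5563521 UMIs, and 1445 and 1655 cells were kept; no barcode sequence was found in both libraries. Clusters were built without the 9 members and without 54 other lymphoid transcription factors, and were named from marker genes that include neither. Genes that the members are known to control stayed in the clustering, and type 2 genes such as Il13 are among the ILC2 markers. Classes and tests share the same cells, so the adjusted p values of members describe these classes and are no independent support. The lymphoid classes, called ILC2-like, T-like, Cd163l1-positive T-like, NK-like and B-like, held 796 cells. In library 1 and library 2 they had 72 and 60, 128 and 120, 36 and 57, 53 and 35, and 133 and 102 cells. Each class carried its own marker list: 18 and 20 of 21 ILC2 markers, 14 and 14 of 14 T markers, 12 and 11 of 14 Cd163l1-positive T markers, 24 and 23 of 25 NK markers and 11 and 11 of 11 B markers were detected in the 2 libraries. The classes were named from these lists, so the counts of markers are no separate support for the names. Levels are UMIs per 1000000 UMIs of the class (CPM), with the SD over n = 2 libraries. Detection also crossed classes. T-like cells had 17 and 17 of 21 ILC2 markers, but at 1514 and 1770 CPM in sum, against 13628 and 12846 in ILC2-like cells. T-like cells of library 2 differed from those of library 1 in 13 fibroblast markers, of which 12 and 10 were detected, summed to 1419 against 199.8 CPM, and T-like cells carried 19 and 18 of 25 NK markers at 8258 and 10156 CPM, against 32266 and 36193 CPM in NK-like cells. The part of these transcripts in the T-like values was not tested. A cluster of 26 cells with type 2 and Cd163l1-positive T genes drew 3.06% of its UMIs from fibroblast markers, against at most 0.0807% in the lymphoid classes, and was left unnamed.

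**Figure D1:**
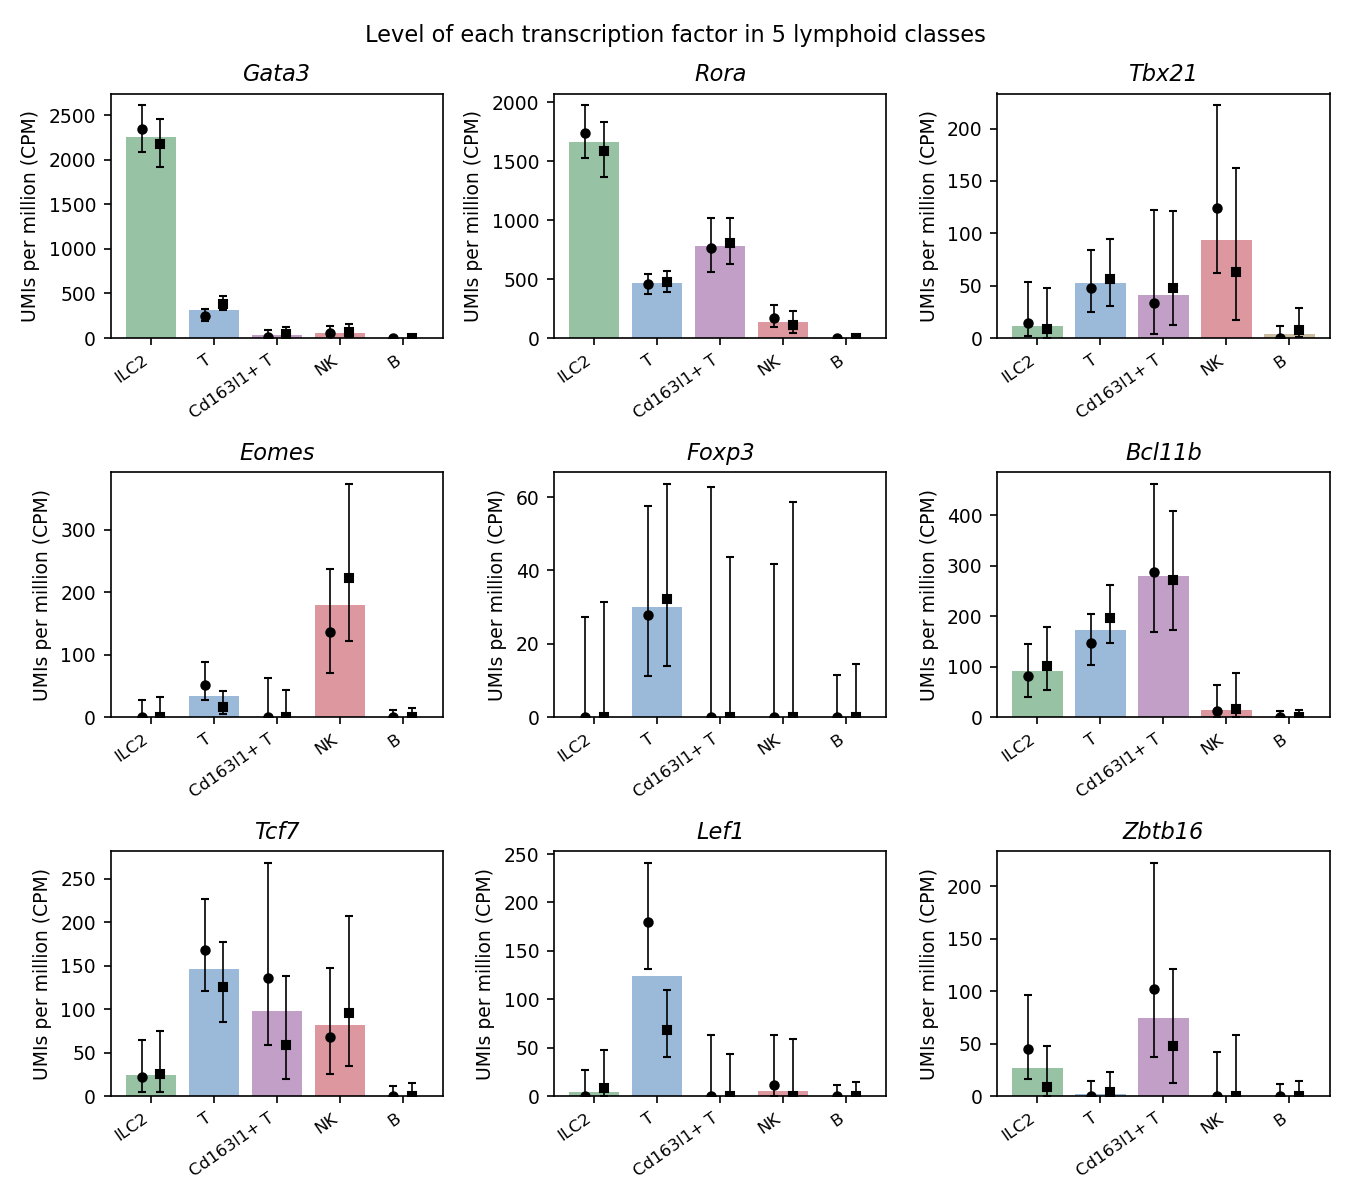
Level of each of the 9 transcription factors (y axis, CPM, own scale in each panel) in 5 lymphoid classes (x axis). Bars are means of 2 libraries, circles library 1, squares library 2, and error bars exact 95% Poisson intervals of each library's count. Gata3 and Rora peaked in ILC2-like cells, Eomes in NK-like cells, Lef1 and Foxp3 in T-like cells and Bcl11b in Cd163l1-positive T-like cells, while B-like cells were at or near 0 for all 9.

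Gata3 was most abundant in ILC2-like cells. There it was counted 316 and 255 times in library 1 and library 2, or 2338 and 2172 CPM (mean 2255 ± 117). T-like cells had 63 and 96 UMIs, or 251.7 and 387.0 CPM. The other classes were low, with 5 and 4 UMIs in NK-like cells (56.5 and 63.5 CPM), 1 and 4 in Cd163l1-positive T-like cells (17.0 and 47.4 CPM) and 1 and 0 in B-like cells. The ILC2-like values lay above those of every other lymphoid class in both libraries, T-like cells came next without overlap, and NK-like and Cd163l1-positive T-like cells were not called different from each other (adjusted p = 0.853, edgeR).

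Over both libraries the Gata3 level in ILC2-like cells was 7.09-fold that in T-like cells, with a counting interval of 5.93 to 8.50. The edgeR quasi-likelihood test on UMIs summed per library and class put the log2 fold change at 3.0 with an SE of 0.24 (adjusted p = 1.75e-13). Ratios with counting intervals use UMIs per total UMIs of each class, without the TMM scaling of the edgeR fit. The fold behind an adjusted p can therefore differ from the ratio printed beside it. Against Cd163l1-positive T-like cells the ratio was 64.8-fold (27.6 to 200.4; adjusted p = 1.16e-15, edgeR) and against NK-like cells 38.1-fold (19.9 to 83.7; adjusted p = 8.34e-16, edgeR). T-like cells in turn had more Gata3 than Cd163l1-positive T-like cells (a log2 difference of 3.53, SE 0.56; adjusted p = 2.26e-05, edgeR) and than NK-like cells (2.69, SE 0.48, adjusted p = 2.08e-04, edgeR). Gata3 overlaps 3 other annotated genes on chromosome 2, of which only 9230102O04Rik, with 11 UMIs against 803 of Gata3, was counted.

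Rora followed a graded order through the lymphoid cells. ILC2-like cells had 235 and 186 UMIs, or 1739 and 1584 CPM. Cd163l1-positive T-like cells had 45 and 68 UMIs, or 764.1 and 805.2 CPM, and T-like cells 114 and 118, or 455.5 and 475.7 CPM. NK-like cells had 15 and 7 UMIs, 169.5 and 111.1 CPM, and B-like cells had none in 572112 UMIs. The libraries gave the same order of the 5 classes, and no 2 classes overlapped.

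The ILC2-like level of Rora was 3.58-fold that of T-like cells (3.04 to 4.22; adjusted p = 3.23e-08, edgeR). It was 2.11-fold that of Cd163l1-positive T-like cells (1.71 to 2.63; adjusted p = 2.03e-05, edgeR) and 11.5-fold that of NK-like cells (7.48 to 18.5; adjusted p = 2.02e-12, edgeR). For Cd163l1-positive T-like cells the edgeR log2 fold change was 1.59 (SE 0.27), a larger fold than the interval of the ratio. T-like and Cd163l1-positive T-like cells, although their libraries did not overlap, were not called different by edgeR (adjusted p = 0.612, with T-like cells lower by −0.41 on the log2 scale, SE 0.28). The pooled ratio of Cd163l1-positive T-like to T-like cells, without TMM scaling, was 1.69 (1.34 to 2.13). Both had more Rora than NK-like cells (adjusted p = 5.00e-04 and 3.91e-05, edgeR). None of the calls for Gata3 and Rora between ILC2-like cells and another class was lost under any alternative that gave a test.

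Tbx21, the gene of T-bet, was sparse everywhere. NK-like cells had 11 and 4 UMIs, or 124.3 and 63.5 CPM, T-like cells 12 and 14, or 47.9 and 56.4 CPM, and Cd163l1-positive T-like cells 2 and 4. ILC2-like cells had 2 and 1 UMIs and B-like cells 0 and 2. NK-like cells were highest in both libraries, but the counting intervals of NK-like, T-like and Cd163l1-positive T-like cells overlapped, and edgeR called Tbx21 only against B-like cells, in T-like cells (adjusted p = 0.00724) and in NK-like cells (adjusted p = 0.00365). The T-like call was lost with the stricter cell filter, without doublet removal and with classes from lymphoid cells alone (adjusted p = 0.0653, 0.324 and 0.124, edgeR). The edgeR adjusted p of ILC2-like against NK-like cells was 0.119, at a log2 difference of −2.56 (SE 0.98), and it passed the threshold without doublet removal (adjusted p = 0.0166) and with classes from lymphoid cells alone (adjusted p = 0.0191).

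Eomes, the T-box partner of Tbx21 in NK cells, had a narrower distribution. NK-like cells had 12 and 14 UMIs, or 135.6 and 222.2 CPM, and T-like cells 13 and 4, or 51.9 and 16.1 CPM. ILC2-like, Cd163l1-positive T-like and B-like cells had 0 UMIs in either library. All 3 differences from NK-like cells were called. With 3 counts over both libraries as the limit of a count of 0, the NK-like level was 14.4-fold that limit in ILC2-like cells (adjusted p = 9.52e-04, edgeR). It was 8.20-fold the limit in Cd163l1-positive T-like cells (adjusted p = 0.00691, edgeR) and 32.7-fold in B-like cells (adjusted p = 2.70e-05, edgeR). These ratios leave out the counting error of the NK-like UMIs. DESeq2's Wald test made none of these calls. Its adjusted p was 0.596 for the first and 0.492 for the last, and it gave no adjusted p for the comparison with Cd163l1-positive T-like cells. The T-like minus NK-like log2 difference was −2.05 (SE 0.66). It was not called by edgeR (adjusted p = 0.0905) but was in the fit of lymphoid classes alone (adjusted p = 0.0109) and without doublet removal (adjusted p = 0.0273).

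Bcl11b was highest in Cd163l1-positive T-like cells, with 17 and 23 UMIs, or 288.7 and 272.3 CPM. T-like cells had 37 and 49 UMIs, or 147.8 and 197.6 CPM, and ILC2-like cells 11 and 12, or 81.4 and 102.2 CPM. NK-like cells had 1 UMI in each library and B-like cells none. These 3 upper classes ranked in this order in both libraries, but the neighbours were not called different: adjusted p was 0.802 for T-like against Cd163l1-positive T-like cells and 0.335 for ILC2-like against T-like cells (edgeR).

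Against NK-like cells Bcl11b was 21.1-fold higher in Cd163l1-positive T-like cells (5.48 to 180.6; adjusted p = 1.04e-04, edgeR), 13.1-fold higher in T-like cells (3.51 to 109.7; adjusted p = 2.62e-04, edgeR) and 6.90-fold higher in ILC2-like cells (1.71 to 60.4; adjusted p = 0.0107, edgeR). None of these 3 was called without doublet removal, where the cells were clustered anew (adjusted p = 0.0665, 0.279 and 0.899, edgeR). In that clustering the NK-like class held 153 cells and the T-like class 183, in place of 88 and 248. Only 39 and 4 barcodes had been marked as doublets in the 2 libraries, so this setting also changed the classes. The parts of doublets and of the changed classes in the lost calls were not tested. The ILC2-like call was also lost with DESeq2's Wald test (adjusted p = 0.0601) and with classes from lymphoid cells alone (adjusted p = 0.404, edgeR).

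Tcf7 was counted 42 and 31 times in T-like cells, 168 and 125 CPM. Cd163l1-positive T-like cells had 8 and 5 UMIs (135.8 and 59.2 CPM), NK-like cells 6 and 6 (67.8 and 95.2 CPM), ILC2-like cells 3 and 3 (22.2 and 25.6 CPM) and B-like cells none. T-like cells were highest in both libraries and ILC2-like cells lowest of the classes with any UMI. Tcf7 was lower in ILC2-like than in T-like cells by a log2 difference of −2.46 with an SE of 0.59 (adjusted p = 0.00409, edgeR), a call lost without doublet removal (adjusted p = 0.0637). T-like, Cd163l1-positive T-like and NK-like cells were not called different from each other (smallest adjusted p = 0.308, edgeR).

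Lef1, in contrast to its relative Tcf7, was nearly confined to T-like cells among the classes measured: 62 of its 66 UMIs came from them. They had 45 UMIs in library 1 and 17 in library 2, or 179.8 and 68.5 CPM, with counting intervals that did not meet. The other lymphoid classes held 2 UMIs, 1 in NK-like and 1 in ILC2-like cells, and Cd163l1-positive T-like cells had none. Lef1 was called higher in T-like than in ILC2-like cells (31.4-fold, 5.43 to 1261, adjusted p = 0.00153, edgeR). The same held against NK-like (18.9-fold, 3.26 to 756.4, adjusted p = 0.00664, edgeR) and Cd163l1-positive T-like cells (adjusted p = 0.00347, edgeR). With 3 counts as the limit of a count of 0, the T-like level was 5.94-fold that limit in Cd163l1-positive T-like cells. This ratio leaves out the counting error of the T-like UMIs. DESeq2's Wald test did not make the calls against ILC2-like and Cd163l1-positive T-like cells (adjusted p = 0.895 and 0.963) and gave no adjusted p for the comparison with NK-like cells. In edgeR the call against NK-like cells was lost without doublet removal (adjusted p = 0.220, edgeR) and with the stricter cell filter (adjusted p = 0.0529, edgeR).

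Foxp3 had 18 UMIs in the 3100 cells analysed. T-like cells held 15 of them, 7 in library 1 and 8 in library 2, or 28.0 and 32.3 CPM (mean 30.1 ± 3.03). No other lymphoid class had a Foxp3 UMI, and 3 UMIs fell in fibroblast-like cells of library 2. Taking 3 counts as the limit of a count of 0, the T-like level was 5.74-fold that limit in B-like and 2.53-fold in ILC2-like cells. It was 1.52-fold the limit in NK-like and 1.44-fold in Cd163l1-positive T-like cells. The counting error of the 15 T-like UMIs is left out, so these ratios are no lower bounds. The filter on low counts removed the gene, so the reported edgeR fit gave it no test. Among the alternatives, 3 tested it. They called Foxp3 higher in T-like than in B-like cells, with an adjusted p of 0.0491 with no filter on low counts, 0.0229 without doublet removal and 0.0374 with lymphoid cells clustered alone, all by edgeR. Against ILC2-like, NK-like and Cd163l1-positive T-like cells none of the 3 made a call, with adjusted p from 0.152 to 0.621 (edgeR). Foxp3 overlaps Flicr (5 UMIs) on its own strand and Ppp1r3f and Ccdc22 (14 and 75 UMIs) on the other, and the sources used here do not say whether counting used the strand.

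Foxp3 UMIs lay in 11 T-like cells. Of these, 10 also had a UMI of Tnfrsf4 and 8 of Il2ra, genes of surface receptors of regulatory T cells, against 25.7% and 11.8% of the other 237 T-like cells. Il1rl1, which encodes the interleukin-33 receptor, was found in 5 and the inhibitory receptor gene Ctla4 in 5, against 10.1% and 12.7% of the others. Of the 16 genes of regulatory T cells looked at, 12 had a higher share in the 11 cells. Lrrc32, Nt5e, Entpd1 and Nrp1 were among the 12 with 1 of 11 cells each. The costimulatory receptor gene Icos had a lower share, with 2 of 11 against 24.9%, and Nt5e differed little, with 1 of 11 against 7.59%. Gpr83, Tigit and Itgae were in 0 of the 11 cells, and in 0, 1 and 0 of the other 237. Among the members, Gata3 and Rora were each found in 8 of the 11 and Tcf7 in 0. With 11 cells, these are counts without a test. The cells were not thinned, and deeper cells more often show a Foxp3 UMI, so their depth may differ from that of the others. The part of depth in these shares was not tested.

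Zbtb16 was more a gene of stromal than of lymphoid cells here, with 3.61% of its 498 UMIs in lymphoid classes. Among these, Cd163l1-positive T-like cells had 6 and 4 UMIs (101.9 and 47.4 CPM), ILC2-like cells 6 and 1 (44.4 and 8.52 CPM), T-like cells 0 and 1, and NK-like and B-like cells none. The Cd163l1-positive T-like level was 34.8-fold that of T-like cells (4.95 to 1509; adjusted p = 0.0195, edgeR). DESeq2's Wald test did not call it (adjusted p = 0.0585). Cd163l1-positive T-like and ILC2-like cells were not called different (adjusted p = 0.742, edgeR). The same was true of ILC2-like and T-like cells (adjusted p = 0.0908, edgeR), but that difference was called with the unnamed cluster of 26 cells counted as ILC2-like (adjusted p = 0.0054).

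**Figure D2:**
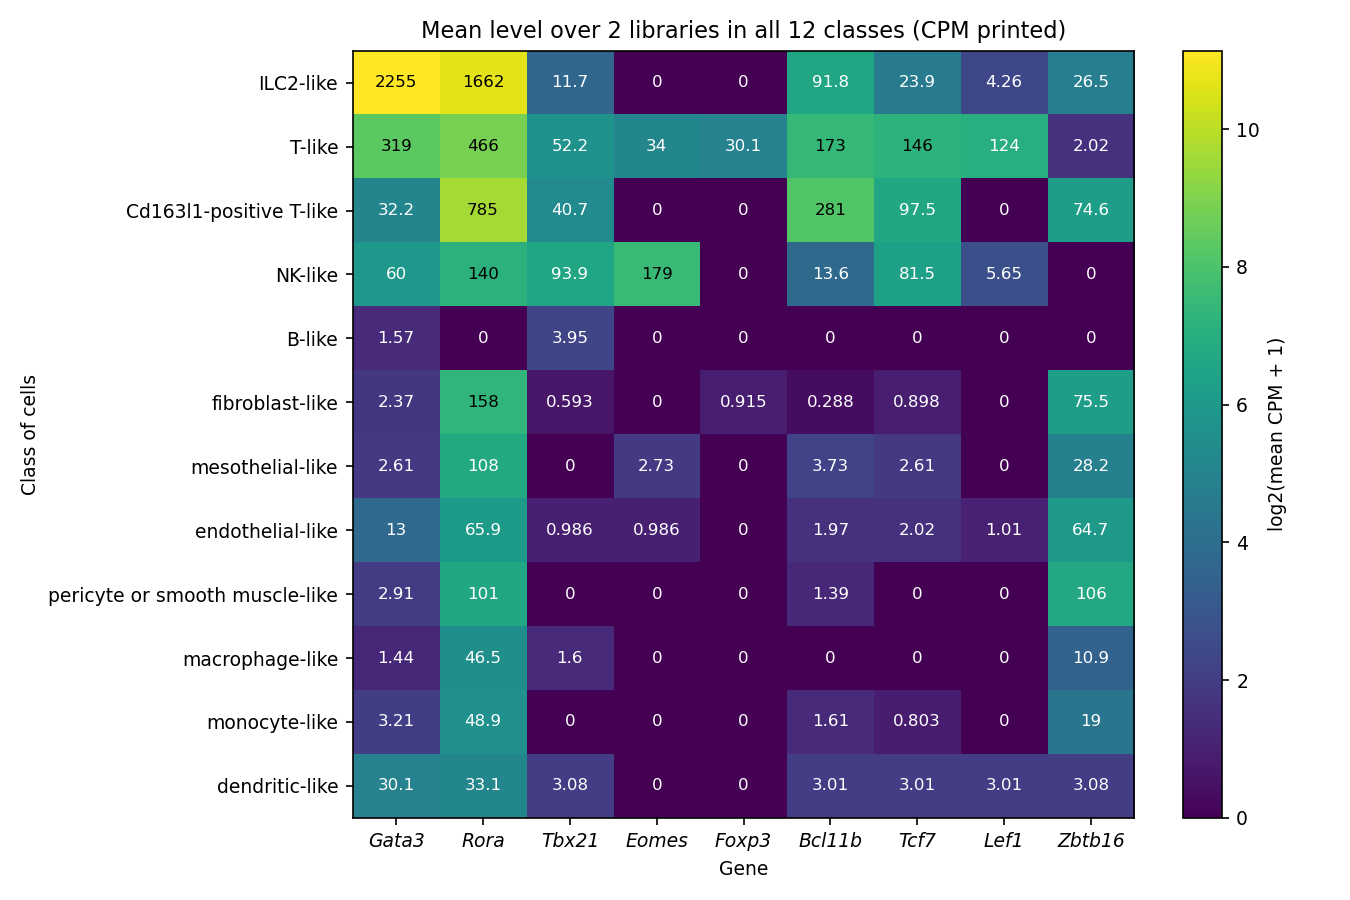
Mean level over 2 libraries of each transcription factor (columns) in 12 classes of cells (rows), coloured by log2(CPM + 1) with the CPM printed. Rora and Zbtb16 reached stromal classes, and the other 7 were low outside the T, NK and ILC2-like rows.

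Outside the lymphoid classes, Zbtb16 was present at 76.6 and 74.4 CPM in fibroblast-like cells, 63.5 and 147.7 in pericyte or smooth muscle-like cells, and 54.6 and 74.9 in endothelial-like cells. The Cd163l1-positive T-like values overlapped those of these stromal classes. Rora had 44.7% of its 1762 UMIs in lymphoid classes and 30.2% in fibroblast-like cells, where its level of 145.1 and 170.7 CPM overlapped that of NK-like cells. Such shares also follow the size of a class. Fibroblast-like cells held 1737169 and 1639972 of the 5137671 and 5563521 UMIs of the libraries. For the other 7 members the lymphoid share ran from 83.3% (Foxp3) to 97.0% (Lef1), with Gata3 at 92.8%, Eomes at 91.5%, Tcf7 at 87.4%, Bcl11b at 87.3% and Tbx21 at 86.7%. Dendritic-like cells of library 2 had 10 Gata3 UMIs (60.3 CPM), while those of library 1 had 0.

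B-like cells served as lymphocytes outside these lineages. Over 572112 UMIs they had 1 UMI of Gata3, 2 of Tbx21 and none of the other 7, and 132 of 133 and 100 of 102 B-like cells had no UMI of any member. Cells without a member UMI numbered 19 of 128 and 14 of 120 among T-like cells, 19 of 53 and 10 of 35 among NK-like cells, and 0 of 72 and 1 of 60 among ILC2-like cells.

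Each pair of lymphoid classes was compared across 7853 genes, of which 8 members passed the filter on low counts and Foxp3 did not. The members were chosen with earlier results of these data known, and the filter can keep a gene through the classes where it is high. Counts of members called, beside the share over all genes, are therefore a description and no test of the list. Between ILC2-like and T-like cells 4 of 8 members were called at an adjusted p under 0.05 by edgeR, Gata3 and Rora higher and Tcf7 and Lef1 lower in ILC2-like cells, while 6.85% of all genes were called (4.32% higher and 2.53% lower in ILC2-like cells). Between ILC2-like and Cd163l1-positive T-like cells 2 were called, Gata3 and Rora, both higher in ILC2-like cells, against 6.35% of genes (4.88% higher and 1.48% lower). ILC2-like and NK-like cells differed in 4, Gata3, Rora and Bcl11b being higher and Eomes lower in ILC2-like cells, against 7.83% of genes (5.78% higher and 2.05% lower). T-like and Cd163l1-positive T-like cells differed in 3, with Gata3 and Lef1 higher and Zbtb16 lower in T-like cells, against 3.32% of genes (2.36% higher and 0.968% lower). With DESeq2 size factors in place of TMM, 43.8% and not 70.9% of the genes called were higher in T-like cells, and no member's call or direction changed.

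T-like and NK-like cells differed in 4 members, Gata3, Rora, Bcl11b and Lef1, all higher in T-like cells, against 3.08% of genes (2.28% higher and 0.802% lower). Here DESeq2 size factors moved the share of calls higher in T-like cells from 74.0% to 51.0%. Cd163l1-positive T-like and NK-like cells differed in 3, Rora and Bcl11b being higher and Eomes lower in the former, against 2.55% of genes (1.35% higher and 1.2% lower). In comparisons with B-like cells, every member called was higher in the other class. These were 5 members in ILC2-like cells, against 15.5% of genes (8.48% in that direction and 7.05% in the other). T-like cells had 7, against 12.6% of genes (6.89% and 5.73%). Cd163l1-positive T-like cells had 4, against 10.5% (4.88% and 5.67%), and NK-like cells 5, against 9.33% (3.96% and 5.37%). The comparisons share classes and libraries, so these counts are not independent. DESeq2's Wald test called 2 members between ILC2-like and NK-like cells and 1 between T-like and Cd163l1-positive T-like cells. It also called fewer members than edgeR in most of the other comparisons.

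**Figure D3:**
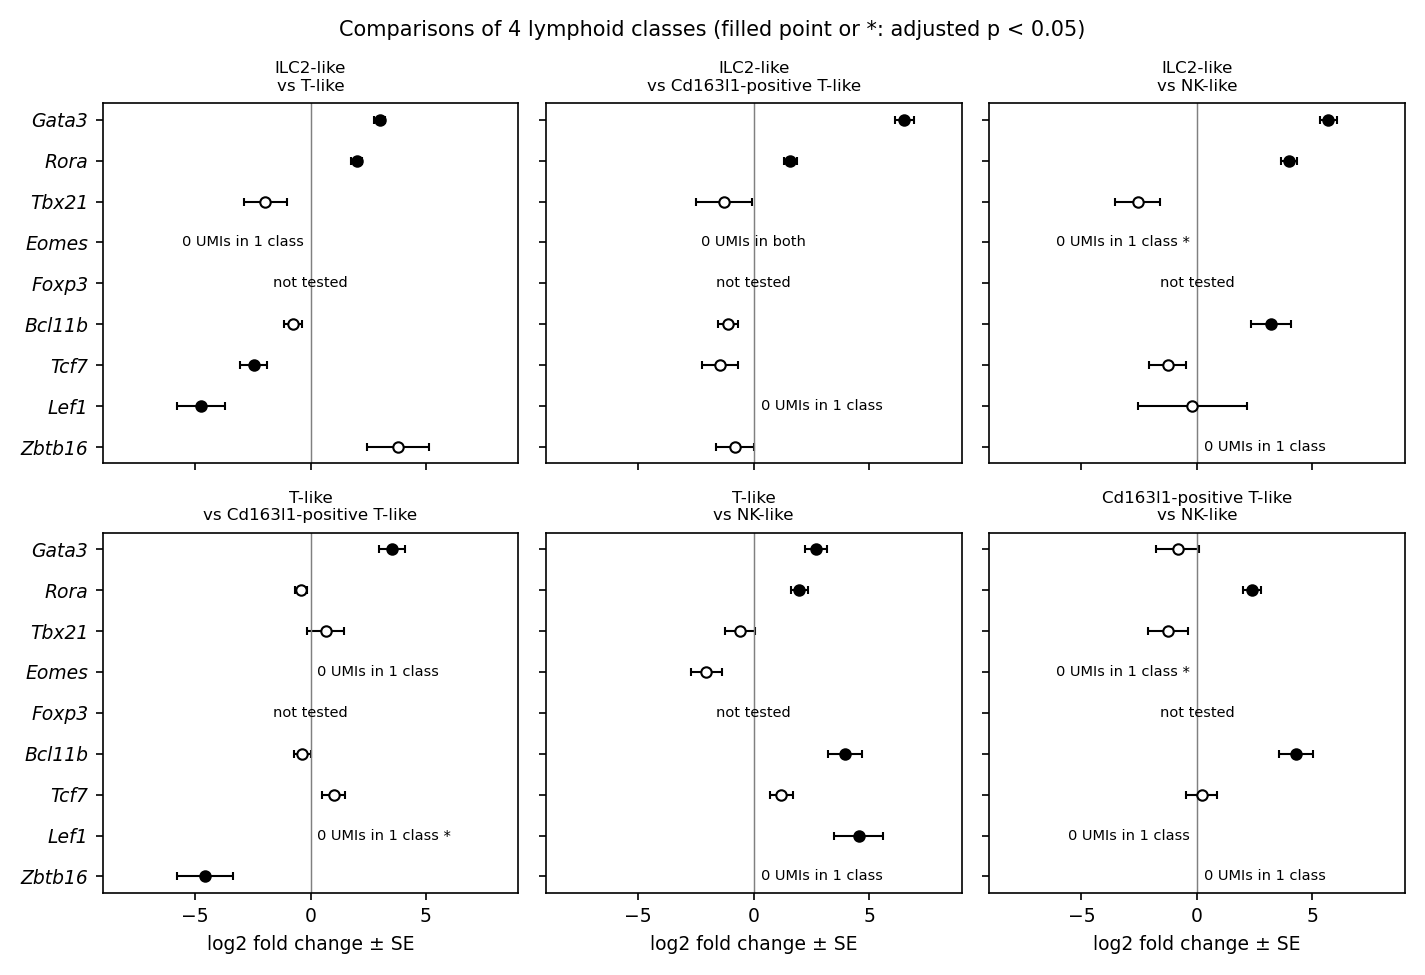
Log2 fold change with its SE (x axis) of each member (y axis) in the 6 comparisons among ILC2-like, T-like, Cd163l1-positive T-like and NK-like cells, with positive values higher in the class named first. Filled points and asterisks mark an adjusted p under 0.05 by edgeR; members with 0 UMIs in a class are written out because their fitted fold is no bound. Gata3 and Rora were filled on the right in all 3 comparisons of ILC2-like cells.

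Because the chance of finding a transcript rises with depth, each cell was thinned to 1000 UMIs before cells with a UMI of a member were counted. After thinning, 108 of 127 ILC2-like cells had a Gata3 UMI (85.0%, exact Clopper-Pearson interval 77.6 to 90.7%) and 99 had a Rora UMI (78.0%, 69.7 to 84.8%). The Gata3 share was 18.8% in T-like cells (14.1 to 24.4%) and 2.44% in Cd163l1-positive T-like cells (0.297 to 8.53%). In B-like cells, which should lack these genes, 1 of 223 had a Gata3 UMI (0.448%, 0.0114 to 2.47%) and 0 of 223 a UMI of the other members, which allows up to 1.35%. The median cell had 1869 UMIs among ILC2-like and 1831 among B-like cells.

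Rora was found in 52.4% of thinned Cd163l1-positive T-like cells (41.1 to 63.6%), 32.6% of T-like (26.7 to 39.0%) and 11.5% of NK-like cells (5.65 to 20.1%). Bcl11b was found in 31.7% of Cd163l1-positive T-like (21.9 to 42.9%), 15.9% of T-like (11.5 to 21.2%) and 7.09% of ILC2-like cells (3.29 to 13.03%). Eomes reached 16.1% of NK-like cells (9.09 to 25.5%) and Tbx21 10.3% (4.84 to 18.7%), and Lef1 12.97% of T-like cells (8.99 to 17.9%). Thinning left out 5 ILC2-like, 9 T-like, 11 Cd163l1-positive T-like, 1 NK-like and 12 B-like cells. Intervals cover counting error only.

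**Figure D4:**
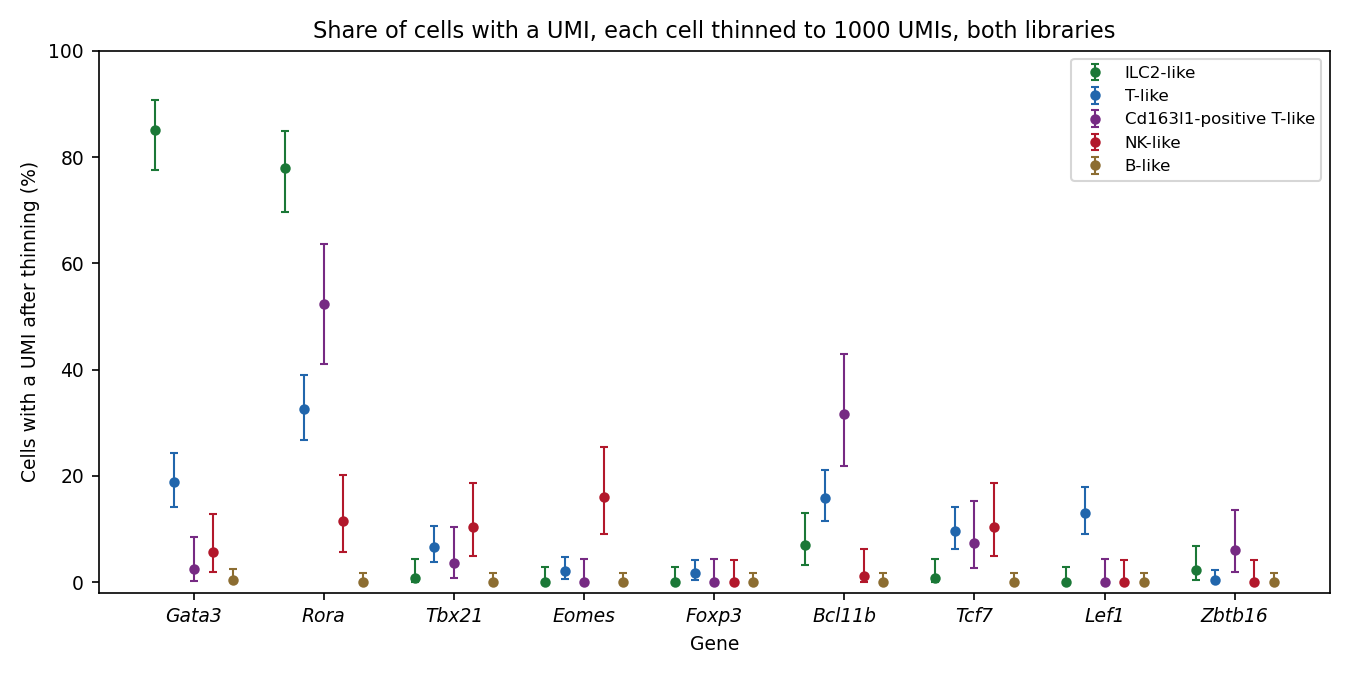
Share of cells with a UMI of each transcription factor (y axis, percent; x axis, gene) after thinning every cell to 1000 UMIs, both libraries together, coloured by class, with exact 95% intervals. Gata3 and Rora reached 85.0% and 78.0% of ILC2-like cells, and B-like cells had at most 0.448% for any member.

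Unthinned cells show which members occurred together. Of 132 ILC2-like cells, 129 had Gata3, 118 had Rora, 116 had both and 1 had neither. Of 248 T-like cells, 68 had Gata3, 112 had Rora and 43 had both, so that Rora was found in 63.2% of the Gata3 cells and 38.3% of the rest, at median depths of 1806 and 1701 UMIs. Tcf7 and Lef1 were found in 55 and 50 T-like cells and together in 17. In NK-like cells Tbx21 was found in 14 and Eomes in 20 of 88 cells, and both in 4. Gata3 with Tbx21 was seen in 4 T-like and 2 ILC2-like cells. At these depths a missing UMI does not show that the transcript was absent.

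Clustering the 796 lymphoid cells alone, again without the transcription factors, split the T-like cells and showed where the members lay within them. Sub-cluster 6, led by Cd8b1 and Dapl1 besides Lef1, held 53 cells of library 1 and 21 of library 2. It had 34 and 7 Lef1 UMIs, 320.4 and 205.8 CPM, and 33 and 10 Tcf7 UMIs, 311.0 and 294.0 CPM. Its Eomes UMIs numbered 13 in library 1 and 0 in library 2, the same number as in all T-like cells of library 1. Gata3 was low in it, with 2 UMIs in each library. The uneven cell numbers of this sub-cluster moved with the library difference in T-like Lef1, and their part in it was not tested.

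Sub-cluster 5, led by Cd40lg, a costimulatory ligand of helper T cells, and Cd4, held 42 and 62 cells. Gata3 stood there at 377.6 and 385.8 CPM, Rora at 667.1 and 651.1 and Bcl11b at 188.8 and 233.1, with Tcf7 at 62.9 and 72.3 CPM. Sub-cluster 7 held 12 and 14 cells and was led by Il10 and Tnfrsf4. It had 7 and 4 Foxp3 UMIs, 18 and 42 of Gata3 (857.0 and 2071 CPM) and 31 and 23 of Rora (1476 and 1134 CPM), with 0 of Tcf7 and 1 of Lef1. The ILC2-like sub-cluster had Gata3 at 2282 and 2058 CPM and Rora at 1737 and 1599. Gata3 in sub-cluster 7 thus differed between the libraries, within that range in library 2 and below it in library 1, and Rora was below it in both. Cd3e, a chain of the T cell receptor complex, stood at 726.7 CPM in sub-cluster 7 and at 30.2 CPM in the ILC2-like sub-cluster. Il2ra was at 1066, Il1rl1 at 1187 and Ctla4 at 532.9 CPM in sub-cluster 7.

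The Cd163l1-positive T-like sub-cluster 0 had Rora at 779.2 and 799.9 CPM, Bcl11b at 301.1 and 317.2 and Zbtb16 at 106.3 and 55.2, and no Eomes or Lef1 UMI. NK-like sub-cluster 3 took in 30 cells that were T-like in the clustering of all cells. It had 3 and 10 Bcl11b UMIs in place of 1 and 1, and 14 and 13 Tbx21 UMIs in place of 11 and 4. A further 13 T-like cells were led by cell cycle genes, drew 0.487% of their UMIs from fibroblast markers and had 2 Foxp3 UMIs, both in library 2.

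**Figure D5:**
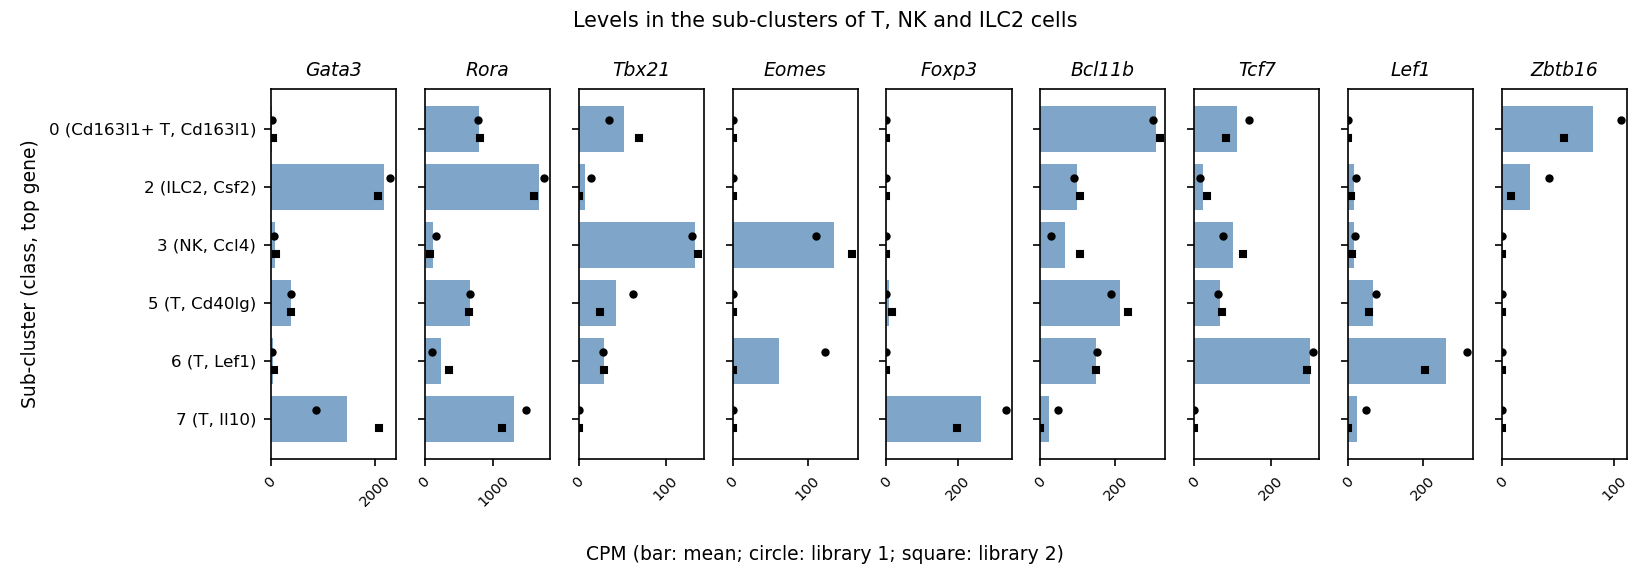
Level of each transcription factor (x axis, CPM, own scale in each panel) in 6 sub-clusters of T, NK and ILC2-like cells (y axis, number with class and top gene). Bars are means of 2 libraries, circles library 1 and squares library 2; Foxp3 stood out in sub-cluster 7, Tcf7 and Lef1 in sub-cluster 6.

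Other lymphoid transcription factors gave the surroundings of the 9 members. Of a list of 54, 48 were tested. Between ILC2-like and T-like cells 6 were higher and 1 lower in ILC2-like cells, against 4.32% and 2.53% of all genes. The median log2 fold change of the list was −0.81, against −0.14 over all genes. With genes at 0 UMIs in a class set to their bound and those at or under 3 UMIs in both classes left out, these medians were −0.65 and −0.18. Id2, an inhibitor of E proteins needed by all innate lymphoid cells, stood at 2086 and 2130 CPM in ILC2-like cells and at 423.5 and 540.2 in T-like cells (adjusted p = 1.58e-09, edgeR), with Bach2 (adjusted p = 0.0041, edgeR) and Runx3 (adjusted p = 3.60e-04, edgeR) also higher. Klf2, which keeps naive T cells in circulation, was lower, at 74.0 and 59.6 against 567.3 and 584.6 CPM (adjusted p = 2.21e-08, edgeR). Between T-like and NK-like cells 2 were higher and 4 lower in T-like cells, against 2.28% and 0.802% of all genes. The 4 included Hhex, Tcf4 and Irf8, the last at 71.9 and 20.2 CPM against 926.4 and 1159 in NK-like cells (adjusted p = 3.22e-11, edgeR). Between T-like and Cd163l1-positive T-like cells Klf2 and Nr4a1 were higher and 1 was lower in T-like cells, against 2.36% and 0.968% of all genes. The lower factor was Ikzf3, which encodes Aiolos, at 63.9 and 60.5 against 356.6 and 378.9 CPM (adjusted p = 6.21e-05, edgeR).

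Between ILC2-like and Cd163l1-positive T-like cells 5 were higher and 1 was lower in ILC2-like cells, against 4.88% and 1.48% of all genes. The lower factor was Maf, at 74.0 and 68.2 against 509.4 and 521.0 CPM (adjusted p = 2.45e-04, edgeR). Between ILC2-like and NK-like cells 6 were higher and 4 lower in ILC2-like cells (5.78% and 2.05% of all genes). For Cd163l1-positive T-like against NK-like cells the counts were 2 and 2 (1.35% and 1.2% of all genes). B-like cells, low for the 9 members, had Ebf1 at 1245 and 1173 CPM, and Pax5 at 134.9 and 146.1 CPM with 0 UMIs in the other lymphoid classes. Both are factors of B cell commitment. Of the 48 factors tested, 14 were higher and 10 lower in B-like than in ILC2-like cells, against 7.05% and 8.48% of all genes. Against T-like cells 12 were higher and 9 lower in B-like cells, against 5.73% and 6.89% of all genes. Against Cd163l1-positive T-like cells the counts were 16 and 8 (5.67% and 4.88% of all genes), and against NK-like cells 12 and 8 (5.37% and 3.96% of all genes), all by edgeR.

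Genes that the members are known to control were not kept from the clustering. Their counts therefore describe the classes, and cannot count as a separate test. Each list is given with its median log2 fold change for the class named first, with genes at 0 UMIs in a class at their bound, beside the same over all genes. Of 14 tested type 2 genes, 9 were higher and 1, Il10, was lower in ILC2-like than in T-like cells (median 2.19, all genes −0.18). They included Arg1, at 525.3 and 357.8 against 4.00 and 0 CPM, and Il13, at 251.6 and 110.7 against 24.0 and 36.3 CPM. Of 19 tested T identity and naive genes, 1, Cd27, was higher and 14 were lower in ILC2-like than in T-like cells (median −2.49, all genes −0.18), with Cd28 at 22.2 and 8.52 against 395.5 and 467.7 CPM.

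Of 15 tested type 1 and cytotoxic genes, 9 were lower and none higher in T-like than in NK-like cells (median −1.48, all genes 0.17), with Ncr1, an activating receptor of NK cells, at 4.00 and 0 against 192.1 and 111.1 CPM. Of 13 tested regulatory T genes, 5 were higher in T-like than in NK-like cells (median 2.59, all genes 0.17), among them Il2ra, at 123.9 and 189.5 CPM against 0 UMIs, and Ctla4, at 111.9 and 100.8 against 11.3 and 0 CPM. Of 11 tested innate-like T genes, 6 were lower in T-like than in Cd163l1-positive T-like cells (median −1.23, all genes 0.17), among them Blk, at 0 and 4.03 against 203.8 and 284.2 CPM, and Il1r1, at 4.00 and 0 against 169.8 and 130.2 CPM. Fitted without the bounds, the T identity and regulatory T medians were −4.00 and 3.94.

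The genes whose levels were most like each member over the 12 classes, by Pearson correlation of log2(CPM + 1) among 5947 genes, are given as a description. The classes share libraries and differ in depth. For Gata3 they were Tfip11, Zc3hav1, Dnajb6 and Nabp1 (r from 0.92 to 0.94), and for Rora Rab4a, Fosl2, Nrip1, Saraf and F2r (0.88 to 0.94). Tbx21 was most like Txk, Sla2, Ctsw, Nkg7 and Cst7 (0.96 to 0.97), and Eomes most like Klra9, Samd3, Gzma, Klrc1 and Klrb1c (0.96 to 0.98). Bcl11b went with BC021614, Lat, Zap70 and Tnfsf11 (0.96 to 0.97), and Tcf7 with Ctsw, Zap70, Cst7, Il2rb and Tnik (0.95 to 0.96). Lef1 and Foxp3 shared Cd8a, Cd8b1, Cd6 and Izumo1r among their 5 genes. Foxp3 had UMIs only in T-like and fibroblast-like cells, so any gene nearly confined to T-like cells correlates with it. The shared genes need not lie in the same cells. Sub-cluster 7, with 7 and 4 Foxp3 UMIs, had 0 UMIs of Cd8a and of Cd8b1. Zbtb16 stood apart with Huwe1, Rps6ka3, Trio, Igf1r and Mex3c (0.93 to 0.95).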

How the data were processed

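Single-cell 3′ libraries (10x Chromium V2) of whole mesentery from 2 mice were analysed. The authors deposited raw UMI counts per gene and barcode; per the submitters' processing notes they came from Cell Ranger (version not given in the sources used here) and build mm10. Barcode suffixes 1 and 2 were matched to the mice by number. Members and gene lists were chosen with earlier results of these data known.

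A filter on cells (200 genes or more, mitochondrial share up to 10%) removed 61 barcodes. In scanpy 1.11.5 (Python 3.11.15), scrublet's own thresholds, 0.163 for library 1 and 0.313 for library 2, marked 39 and 4 doublets, which left 3100 cells. Leiden clustering (2000 variable genes, 30 components, 15 neighbours, resolution 1, seed 0) gave 16 clusters. The 63 transcription factors of both lists were kept out. Clusters were named for the marker list with the highest mean fold, provided that 3 of its genes exceeded 2-fold and were found in 10% of its cells. Lymphoid clusters with over 1% of UMIs from fibroblast markers stayed unnamed, a limit chosen after the data were seen.

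Deposited counts were summed per library and class, 24 sums for 12 classes. edgeR 4.0.16 (R 4.3.3) fitted them after filterByExpr and TMM scaling, with a block for the library, since each animal gave every class. Same-numbered sums come from the same animal. Benjamini-Hochberg adjustment ran over all 7853 genes. The spread is pooled over the 12 classes of the 2 animals. A simulation gave every class the mean profile over all classes and a fixed spread, with genes changed in the ILC2-like sums only. Between ILC2-like and T-like sums, 6899 genes were tested. Of genes changed by a log2 fold of 2, 25.6% were called, and of those changed by 3, 64.8%. Also called were 5 unchanged genes. Means and spread were not those of the real classes, so these shares need not hold for them. CPM intervals are exact Poisson and shares Clopper-Pearson, at 95%, and the limit of a count of 0 is 3 counts. Gene overlaps are from GENCODE on GRCm38.

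Named genes were all members, per comparison up to 4 other transcription factors with the largest fold among those called and at least 20 CPM in the higher class, per member the 5 most correlated genes with at least 50 CPM in some class, and per list of downstream genes up to 4 with the largest fold. A correlated gene is not reported here. Alternatives were DESeq2 1.42.0 size factors and Wald test, all genes kept whatever their counts, no replicate block, lymphoid classes only, each library left out, resolutions of 0.5 and 2, a stricter cell filter (500 genes, 5% mitochondrial), no doublet removal, transcription factors kept in, classes from lymphoid cells alone, and thinning to 500 UMIs or none. Keeping the unnamed cluster was added after the data were seen.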

Additional observations from a re-analysis of the deposited data

How the results depend on the processing

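Of 80 results for a member in a comparison, 41 were called, and in 456 refits 434 of these kept their side of the threshold, 22 did not and 0 reversed. DESeq2's Wald test gave no adjusted p for 2 of the 41, Eomes between Cd163l1-positive T-like and NK-like cells and Lef1 between T-like and NK-like cells, and these are left out of the counts. Their unadjusted p was 0.222 and 0.543 (DESeq2 Wald test), so neither lay under 0.05 even before adjustment. Of 409 refits of results not called, 17 passed. Of 113 refitted counts of members called, 110 stayed within 1.5 times. With DESeq2's Wald test the count fell from 4 to 2 between ILC2-like and NK-like cells and from 3 to 1 between T-like and Cd163l1-positive T-like cells, where it was also 1 with lymphoid classes only, a fit that tested 5 members. Smaller falls with the Wald test were from 7 to 5 for T-like against B-like cells and from 5 to 4 for NK-like against B-like cells. For ILC2-like against T-like and T-like against NK-like cells the count went from 4 to 3. For Cd163l1-positive T-like against NK-like cells it went from 3 to 2. Levels stayed within 1 SD in 124 of 135 cases and shares within their interval in 101 of 135, most of the others moving with the thinning depth. Within single libraries all 82 directions of the 41 called results held, a value with no test because 1 library leaves no residual degrees of freedom. These results were called from the same 2 libraries, which made a reversal unlikely, so the directions are no separate support. Without the replicate block the counts of members called were the same in all 10 comparisons, for example 4 between ILC2-like and T-like cells and 3 between T-like and Cd163l1-positive T-like cells.

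Totals over all genes moved more. Between T-like and Cd163l1-positive T-like cells 261 genes were called, against 127 with DESeq2's Wald test and 158 without the replicate block. Between T-like and NK-like cells 242 were called, against 145 with DESeq2 size factors, 134 with the Wald test and 148 without the block. DESeq2 size factors moved the share of calls higher in T-like cells from 70.9% to 43.8% against Cd163l1-positive T-like cells and from 74.0% to 51.0% against NK-like cells, and moved the median fold over the whole table, on the log2 scale, from 0.15 to 0.02 and from 0.18 to 0.01. No member changed direction or call with them. With the unnamed cluster kept, 947 in place of 538 genes were called between ILC2-like and T-like cells and 1862 in place of 1220 between ILC2-like and B-like cells. The cause was not tested. At resolution 0.5 Cd163l1-positive T-like and NK-like cells merged with T-like cells and gave no values. Depth limits Foxp3, Eomes and Tbx21 most, with 18, 47 and 60 UMIs in the cells analysed.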

Other observations

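The 26 cells left unnamed, 6 of library 1 and 20 of library 2, carried 9 and 41 Rora UMIs (308.3 and 401.4 CPM), 3 and 13 of Gata3 (102.8 and 127.3 CPM), 3 and 6 of Zbtb16 (102.8 and 58.7 CPM) and 1 and 9 of Bcl11b (34.3 and 88.1 CPM). Eomes, Foxp3 and Lef1 had 0 UMIs in them. Their leading genes included Il13, Csf2 and Cd163l1, and the median cell had 5127 UMIs, against 1869 in ILC2-like cells. Their Gata3 level was far below that of ILC2-like cells, and the part of mixed droplets in it was not tested.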
